A study of Homo sapiens with 6 samples.

Results

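The 10 keratin genes KRT7, KRT8, KRT10, KRT15, KRT17, KRT18, KRT19, KRT80, KRT81 and KRT86 were followed in MDA-MB-231 cells, a human cell line of triple negative breast cancer (TNBC), after silencing of SAM68. They were chosen by name, and each had 1 of the 74852 loci in the deposited table of normalized read counts. Cells received non-targeting siRNAs (si-CTRL, 3 libraries) or 4 pooled siRNAs that target SAM68 (si-SAM68, 3 libraries) in 2 rounds of transfection, and the labels place the harvest 24 h after the second. The study's methods give a longer time, counted from transfection without naming the round, so that whether it differs from the labels cannot be told. They also differ from the labels in the culture medium and the RNA kit they give, and which is right cannot be told from the values. The comparison asks which keratins differ between SAM68-silenced and control cells, and whether type I and type II chains move together. The labels do not say whether the libraries came from separate cultures, so that p-values measure the spread between these libraries, which may be technical.

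Keratins are the intermediate filament proteins of epithelial cells. A type I and a type II chain pair with each other, and the pairs assemble into filaments that desmosomes anchor at the cell border. KRT8 and KRT18 form the main pair of simple epithelia, where KRT7 and KRT19 are also made. KRT15 and KRT17 belong to basal or injured epithelium, KRT10 to differentiating epidermis, and KRT81 and KRT86 to hair.

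KHDRBS1, the gene of SAM68, checks the labels. The siRNAs of the SAM68 pool are printed because they define the treatment. Each matched the coding sequence of KHDRBS1 on chromosome 1 exactly, in exons 9, 2, 5 and 3 for siRNAs 1, 2, 3 and 4 (GENCODE transcript, GRCh38), and had no exact match in transcripts of the 10 keratins. Partial matches were not tested. Sequences run 5′ to 3′.
siSAM68_1: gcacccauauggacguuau
siSAM68_2: gaaagagcgagugcugaua
siSAM68_3: uaugauggaugauaucugu
siSAM68_4: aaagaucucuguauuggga
Values of single libraries are given in the order of replicates 1, 2 and 3. The normalized read count of KHDRBS1 was 15660.4, 14483 and 14737 in the control libraries, against 583, 602 and 670.2 in the silenced ones. The silenced libraries were therefore all far below the control libraries (log2 fold change -4.60, standard error 0.083, limma adjusted p = 2.13e-09).

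The libraries held 52625492, 67124351 and 69355385 reads in the control libraries, against 65473122, 82568487 and 59488569 in the silenced ones. In si-SAM68 replicate 2 an rRNA locus took 15.1% of the reads, against 1.83% to 3.17% in the others. The recovered reads of 2 libraries were compared over the loci tested without this locus, by the chi-square per degree of freedom. It was 70.5 and 67.7 between si-CTRL replicate 1 and replicates 2 and 3, but 10.9 between those, and between 18.3 and 25.5 among si-SAM68 libraries. With the rRNA locus, si-SAM68 replicate 2 was at 386 and 388 from the others. Without si-SAM68 replicate 2 the log2 fold change was 0.37 for KRT18, 0.33 for KRT8, 0.36 for KRT19, 0.35 for KRT80 and -0.71 for KRT15, with adjusted p between 0.0536 and 0.120. Without si-CTRL replicate 1 it was 0.32 for KRT18, 0.27 for KRT8, 0.41 for KRT19, 0.35 for KRT80 and -0.54 for KRT15, with adjusted p between 0.00502 and 0.0323, and 2839 loci in place of 2017 were called at an adjusted p under 0.05.

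All 10 keratins passed the minimum mean of 10 normalized reads and were tested. At an adjusted p under 0.05 (limma, Benjamini-Hochberg over the 18849 loci tested), 4 were higher in si-SAM68 cells, namely KRT8, KRT18, KRT19 and KRT80, and 1 was lower, KRT15. Among all loci tested the same threshold was passed by 4.47% in the higher and 6.23% in the lower direction. By the thresholds of the study's methods, 0 keratins were higher and 1 was lower, beside 2.83% and 4.83% of all loci. The thresholds were a p of at most 0.05, taken here as unadjusted, and a fold change of at least 1.5. With limma on the deposited loci they took 1445 loci in all. These are not the study's own calls, which came from its own annotation and analysis and were not compared here. At an unadjusted p under 0.05, 7 of the 10 passed, beside 27.0% of all loci. The groups did not overlap, with si-SAM68 higher, for 5 keratins and 16.6% of all loci, and with si-SAM68 lower for 1 keratin and 17.3% of all loci. The median log2 fold change was 0.17 over the 10 keratins and 0.01 over all loci tested. These calls lay near the threshold. Leaving out any 1 si-SAM68 library left 0 keratins called higher and 0 called lower at an adjusted p under 0.05. Leaving out si-CTRL replicate 3 left 1 and 0, and limma without a mean-variance trend left 0 and 0. Calls over all loci fell as well, from 2017 to 923, 808 and 625 without si-SAM68 replicates 1, 2 and 3. They fell to 1103 without si-CTRL replicate 3 and to 899 without the trend. Without si-CTRL replicate 1, 4 keratins were called higher and 2 lower, KRT15 and KRT81, among 2839 loci called. With the replicate number as a block, 3 keratins were called higher and 0 lower, among 1697 loci called.

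**Figure D1:**
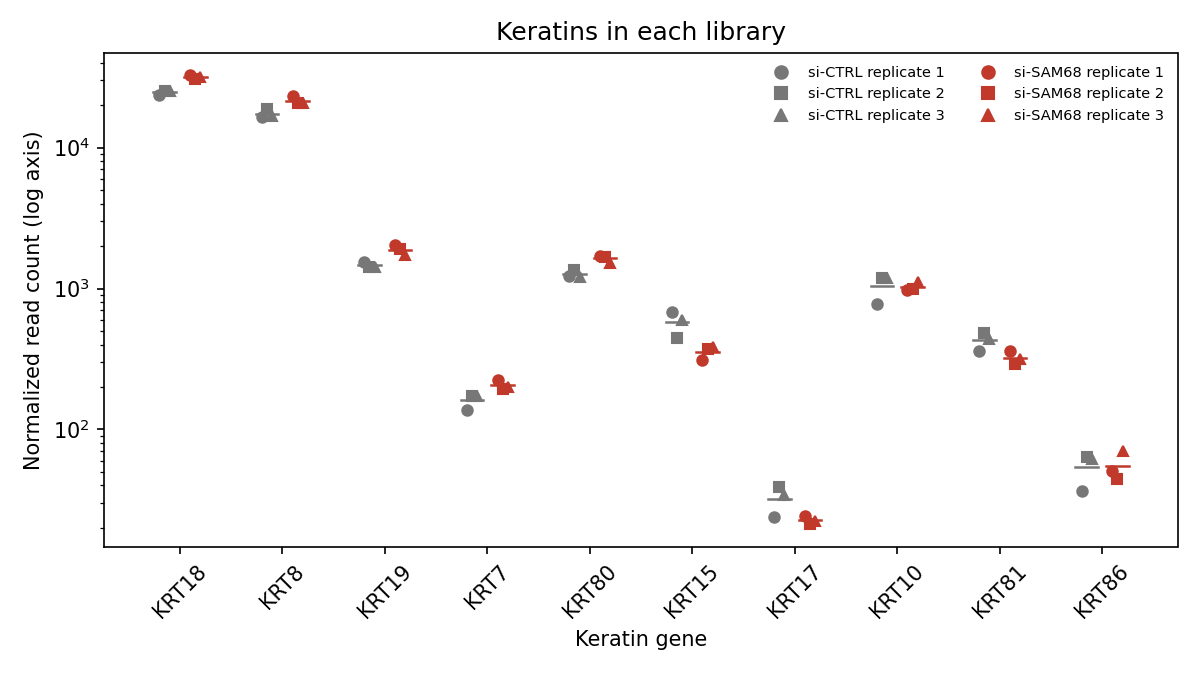
Normalized read count (log axis) of each of the 10 keratins in the 3 si-CTRL and 3 si-SAM68 libraries, with a bar at each group mean. All si-SAM68 libraries lie above all si-CTRL libraries for KRT18, KRT8, KRT19, KRT7 and KRT80, and below them for KRT15.

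KRT18 is the type I chain of the main simple-epithelial pair and lies at chr12:53342655-53346694 (hg19, as in the table). Its normalized read count was 23834, 25456 and 25230.5 in the control libraries, against 32569, 30610.1 and 31688 in the silenced ones. Every silenced library was above every control library. The log2 fold change was 0.35 (95% confidence interval 0.19 to 0.50, limma adjusted p = 0.0144). Without each si-SAM68 library in turn, the adjusted p was between 0.0536 and 0.0674.

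KRT8, its type II partner, lies at chr12:53290971-53343650, a locus that overlaps that of KRT18 by 996 bases. Its normalized read count was 16628, 18867 and 16895 in the control libraries, against 23334, 20765 and 20674 in the silenced ones. The groups did not overlap, and si-SAM68 replicate 1 was the highest library. The log2 fold change was 0.31 (95% confidence interval 0.12 to 0.49, limma adjusted p = 0.0436). Without si-CTRL replicate 3 or any 1 si-SAM68 library the adjusted p was between 0.106 and 0.138, and it was 0.0696 with the replicate number as a block. Of the 1588 stretches of 100 bases in the KRT8 transcript, 120 are also found in transcripts of other genes, foremost its pseudogene KRT8P3, whereas KRT18 had 0 such stretches of 1463.

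KRT19 is a type I chain of simple and ductal epithelium. Its normalized read count was 1535, 1415 and 1431 in the control libraries, against 2048, 1902 and 1725 in the silenced ones. The groups did not overlap, and the log2 fold change was 0.37 (95% confidence interval 0.17 to 0.57, limma adjusted p = 0.0309). Without each library in turn other than si-CTRL replicate 1, the adjusted p was between 0.0541 and 0.116. The locus named KRT19 spans 263095 bases (chr17:39679870-39942964, hg19), whereas the KRT19 gene itself spans 4692 bases in GENCODE (GRCh38). From the start of KRT19 to the end of JUP, the gene of plakoglobin, GENCODE gives 263315 bases, and 0 loci of the table are named JUP. Reads of KRT19 and JUP can therefore not be told apart in this value. Wholly within the locus lie 16 other loci of the table, among them KRT9, KRT14, KRT16, KRT17, HAP1 and EIF1, a gene of translation initiation. EIF1 had between 38797 and 55404 normalized reads per library, more than the whole KRT19 locus, so that the KRT19 value does not hold all reads from this stretch. Each of the other 15 had at most 87.5 in any library, and how reads in shared stretches were assigned was not tested.

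KRT7 is a type II chain of glandular epithelium (chr12:52626954-52642709). Its normalized read count was 137, 173 and 172 in the control libraries, against 226, 192 and 201 in the silenced ones. The groups did not overlap, but the difference did not pass the test (log2 fold change 0.36, 95% confidence interval 0.03 to 0.69, limma adjusted p = 0.148).

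KRT80 is a type II keratin of epithelial cells (chr12:52562780-52585784). Its normalized read count was 1219.8, 1357 and 1212 in the control libraries, against 1704, 1678 and 1527 in the silenced ones. Here too every silenced library exceeded every control library. The log2 fold change was 0.37 (95% confidence interval 0.17 to 0.57, limma adjusted p = 0.0281). Without si-CTRL replicate 3 or any 1 si-SAM68 library, the adjusted p was between 0.0653 and 0.120.

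KRT15, a type I keratin of basal epithelial cells, moved the other way (chr17:39669998-39678665, a locus joined with the microRNA gene MIR6510). Its normalized read count was 684, 446 and 594 in the control libraries, against 308, 373 and 387 in the silenced ones. All silenced libraries were below all control libraries, although the control libraries spread widely. The log2 fold change was -0.68 (95% confidence interval -1.04 to -0.31, limma adjusted p = 0.0286). With the replicate number as a block the adjusted p was 0.0508, and without si-CTRL replicate 3 or any 1 si-SAM68 library it was between 0.0702 and 0.105. KRT17, induced in injured epithelium, lies within the KRT19 locus (chr17:39775692-39780882) and may share reads with it. It was low, with 23.7 to 38.7 normalized reads in si-CTRL and 21.2 to 24.2 in si-SAM68 libraries. Its groups overlapped (log2 fold change -0.47, limma adjusted p = 0.315).

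KRT10, the type I chain of differentiating epidermis, had 774, 1179 and 1191 normalized reads in the control libraries, against 975, 991 and 1114 in the silenced ones. The spread among control libraries was larger than the difference between groups (log2 fold change -0.0046, 95% confidence interval -0.36 to 0.35, limma adjusted p = 0.99). Its locus overlaps that of TMEM99 by 3520.0 bases, so that the genes may share reads.

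KRT81, a type II hair keratin, had 357, 485 and 441 normalized reads in the control libraries, against 359, 291 and 317 in the silenced ones. The groups overlapped at si-CTRL replicate 1, and the difference did not pass the test (log2 fold change -0.40, 95% confidence interval -0.72 to -0.09, limma adjusted p = 0.0998). Without si-CTRL replicate 1 the log2 fold change was -0.53 with an adjusted p of 0.0166. KRT86, its near copy, had between 36.2 and 63.9 normalized reads in si-CTRL and between 44.2 and 70.4 in si-SAM68 libraries (log2 fold change 0.04, limma adjusted p = 0.943).

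The values of KRT81 and KRT86 are uncertain because the genes share sequence and place. The KRT81 locus, 34716 bases long, lies wholly within the KRT86 locus on chromosome 12 of hg19. Over the first 1302 coding bases, aligned without gaps, 1262 are the same (96.9%), and 538 stretches of 100 bases in the KRT81 transcript are also in KRT86 transcripts. The middle of this part, coding bases 592 to 711, is printed to show how few bases could assign a read. It runs over exons 3 and 4 of KRT81 (chr12:52288385-52289262, minus strand) and exons 5 and 6 of KRT86 (chr12:52304124-52305003, plus strand; GENCODE, GRCh38, introns left out), 5′ to 3′, with the 2 differing bases in capitals.
KRT81: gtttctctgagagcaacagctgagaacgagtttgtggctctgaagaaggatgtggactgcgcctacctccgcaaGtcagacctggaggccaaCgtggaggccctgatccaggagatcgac
KRT86: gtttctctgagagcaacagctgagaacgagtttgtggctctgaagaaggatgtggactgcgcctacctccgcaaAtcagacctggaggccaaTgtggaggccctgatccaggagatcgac
How reads from such stretches were assigned is not given in the sources used here.

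**Figure D2:**
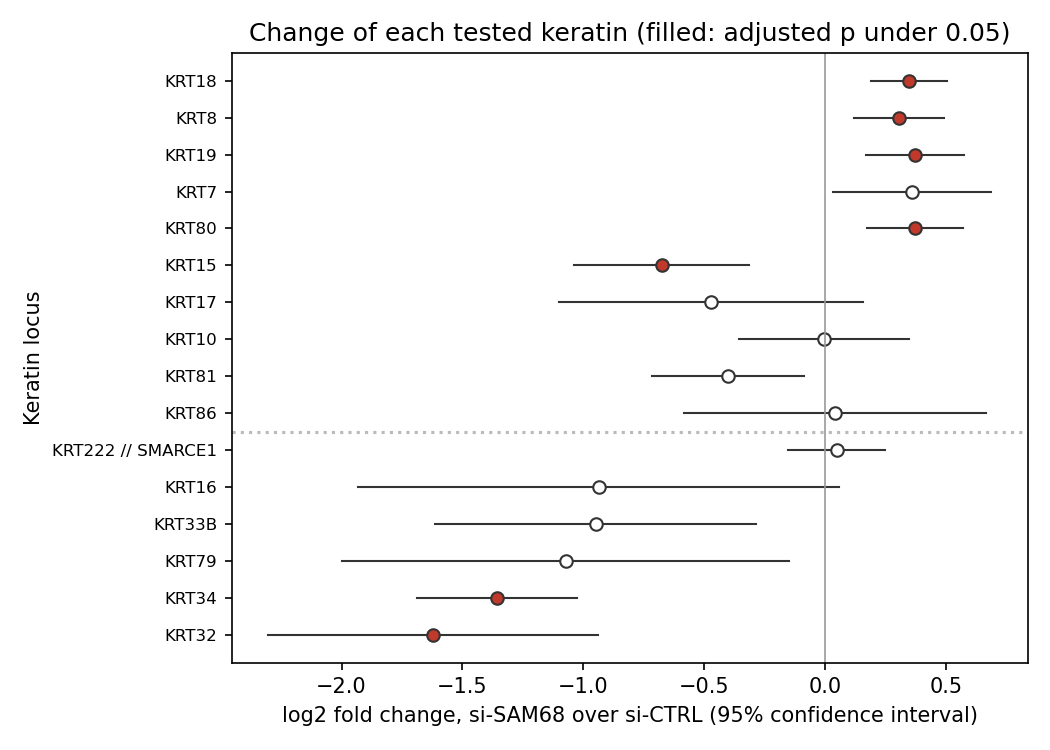
The log2 fold change (si-SAM68 over si-CTRL) with its 95% confidence interval is drawn for the 10 keratins, above the dotted line, and for the 6 other keratin loci tested, below it. Filled points, with an adjusted p under 0.05, lie to the right for KRT18, KRT8, KRT19 and KRT80 and to the left for KRT15, KRT34 and KRT32.

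Type I and type II partners were compared within each library, which needs no gene length. The ratio of KRT18 to KRT8 was 1.43, 1.35 and 1.49 in the control libraries, against 1.40, 1.47 and 1.53 in the silenced ones. The groups overlapped, and the log2 ratio differed by 0.04 (two-sided exact permutation p = 0.6, n = 3 against 3). The smallest p that 3 against 3 libraries can give is 0.1. Since the KRT19 value may hold reads of JUP, ratios with KRT19 may not compare keratins alone. For KRT19 over KRT8 the log2 ratio differed by 0.06 (exact permutation p = 0.7), for KRT18 over KRT7 by -0.01 (exact permutation p = 0.8) and for KRT19 over KRT7 by 0.01 (exact permutation p = 1). Adjusted over the 4 pairs, each p was 1. With single libraries left out, the difference of KRT18 over KRT8 was lowest, at 0.0034, when si-CTRL replicate 2 was omitted and highest, at 0.078, when si-SAM68 replicate 1 was. That of KRT19 over KRT8 was between -0.01 and 0.14, that of KRT18 over KRT7 between -0.05 and 0.07, and that of KRT19 over KRT7 between -0.07 and 0.16.

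**Figure D3:**
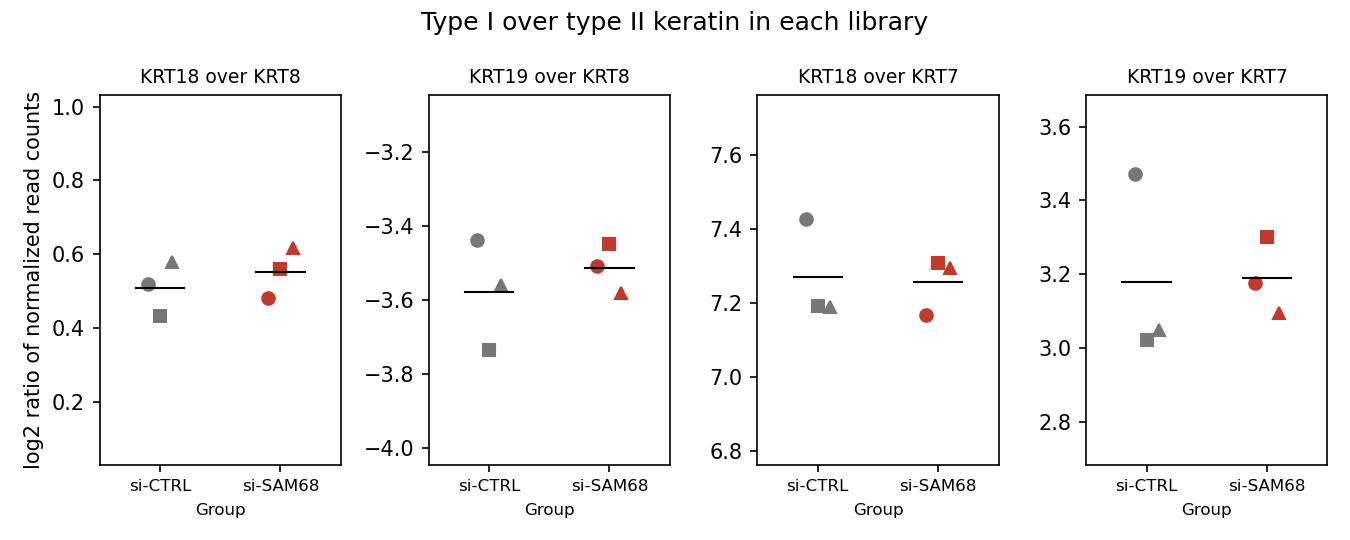
The log2 ratio of a type I to a type II keratin is plotted for each library (circle, square and triangle for replicates 1, 2 and 3; bars for group means), with axes of equal span but different position. The groups overlap for each of the 4 pairs. The KRT19 value may hold reads of JUP.

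Summed over type, the 5 type I keratins had 26850.2, 28535 and 28481 normalized reads in the control libraries, against 35924.5, 33897 and 34935 in the silenced ones. The 5 type II keratins had 18379, 20947 and 18782 in the control libraries, against 25672, 22969.6 and 22789 in the silenced ones. Both sums were higher in every silenced library. The type I sum includes any reads of JUP held by the KRT19 locus. KRT8 and KRT18 made up between 89.1% and 90.8% of the reads of the 10 keratins in each library.

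Levels of different genes were compared per kb of joined exons (GENCODE, GRCh38). In si-CTRL cells KRT18 was highest at 12364.5 ± 437 reads per kb (SD, n = 3), followed by KRT8 at 3812 ± 267 and KRT19 at 1050.5 ± 46.8. KRT10 had 493 ± 112 and KRT80 324 ± 20.9 reads per kb. Below these were KRT81 (222 ± 33.6), KRT15 (110 ± 22.9) and KRT7 (91.8 ± 11.6), and on this scale the ranges of KRT15 and KRT7, mean ± SD, overlapped. KRT86 (23.8 ± 6.80) and KRT17 (19.5 ± 4.66) were lowest, and their ranges likewise overlapped. Per kb of coding length, KRT80 (931 ± 60.1) stood above KRT10 (598 ± 136), and KRT15 (420 ± 87.5) above KRT81 (282 ± 42.8) and far above KRT7 (114 ± 14.5). KRT18 and KRT8 were the highest on both scales. The place of KRT19 rests on dividing its locus by the length of KRT19 alone. Divided by the exons of KRT19 and JUP together, a length chosen after seeing the data, it had 287 ± 12.8 reads per kb (SD, n = 3), below KRT10 and KRT80.

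**Figure D4:**
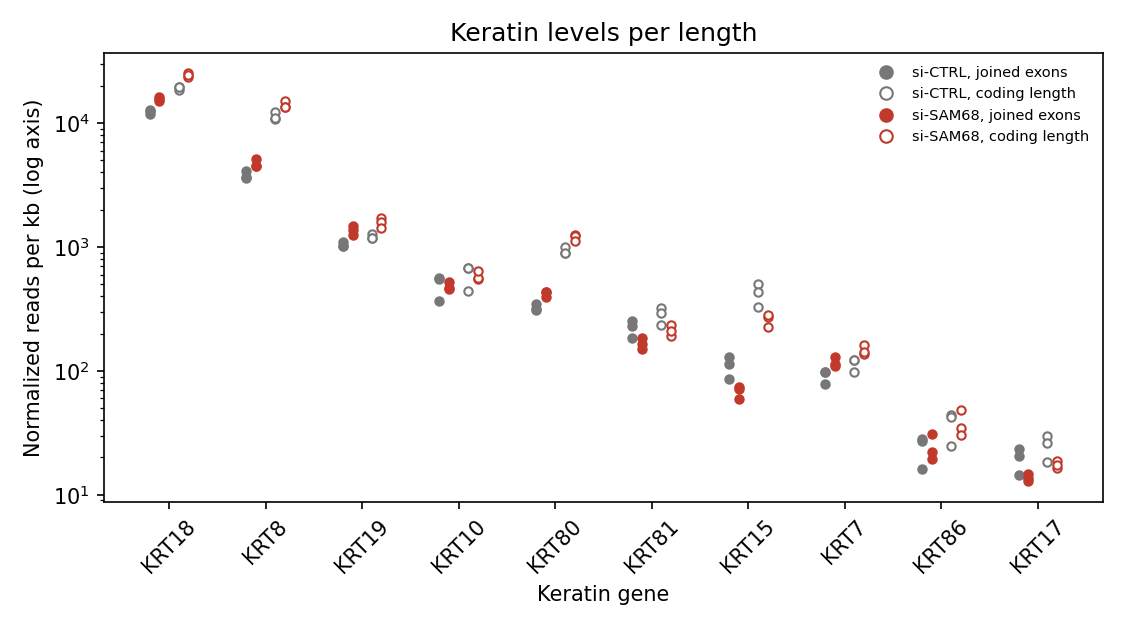
Normalized reads per kb (log axis) of the 10 keratins in each library, per joined exon length (filled) and per coding length (open). KRT18 and KRT8 lead on both scales, the KRT19 locus is divided by the length of KRT19 alone, and KRT15, KRT8 and KRT80 are 3.83, 2.99 and 2.87 times higher per coding length.

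The table lists 53 other keratin loci, of which 24 were at 0 in every library, 23 were above 0 but under the minimum, and 6 were tested. At an adjusted p under 0.05, 0 of these 6 were higher and 2 were lower, KRT34 and KRT32, both type I hair keratins, beside 4.47% and 6.23% of all loci tested. KRT34 had 195, 182 and 212 normalized reads in the control libraries, against 72.5, 81.9 and 73.7 in the silenced ones (log2 fold change -1.36, standard error 0.15, limma adjusted p = 0.000858). KRT32 had 40.0, 44.6 and 50.4 normalized reads in the control libraries, against 19.1, 13.8 and 10.1 in the silenced ones (log2 fold change -1.62, standard error 0.31, limma adjusted p = 0.0111). Neither group overlapped the other, and both genes passed the threshold without each library in turn. KRT33B (log2 fold change -0.95, limma adjusted p = 0.0703), KRT79 (-1.07, 0.131) and KRT16 (-0.94, 0.211) did not pass, nor did the locus that joins KRT222 with SMARCE1 (0.05, 0.773).

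Promoter sequences (RefSeq, GRCh38.p14) were matched for 2 of the 10 keratins, KRT8 and KRT10, and for KRT32, KRT33B, KRT34 and KRT79 among the others tested. KRT7, KRT15, KRT17, KRT18, KRT19, KRT80, KRT81, KRT86 and KRT16 had no entry. The 50 bases before the start site of each entry are printed because KRT8 rose while KRT32 and KRT34 fell. The letters TATAAA, searched on both strands, are in capitals. The KRT8 locus spans 52680 bases and may hold other start sites. Which start its reads came from was not tested. All are on the minus strand, at chr12:52926470-52926519, chr17:40822615-40822664, chr17:41467387-41467436, chr17:41369814-41369863, chr17:41382307-41382356 and chr12:52834312-52834361 in the order printed, 5′ to 3′.
KRT8: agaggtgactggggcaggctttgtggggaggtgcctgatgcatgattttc
KRT10: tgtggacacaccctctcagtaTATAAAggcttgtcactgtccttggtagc
KRT32: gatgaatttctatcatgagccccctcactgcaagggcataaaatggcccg
KRT33B: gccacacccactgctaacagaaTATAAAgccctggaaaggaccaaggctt
KRT34: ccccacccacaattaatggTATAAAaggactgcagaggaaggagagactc
KRT79: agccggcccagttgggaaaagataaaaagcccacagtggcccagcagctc
TATAAA began 29 bases before the start in KRT10, 28 in KRT33B and 31 in KRT34, and these letters were absent from the window in KRT8, KRT32 and KRT79. Of 35116 promoters, 3.47% hold them in the same 50 bases.

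Other components of the keratin system were read from gene lists, each to be set beside all loci tested, of which 4.47% were higher and 6.23% lower at an adjusted p under 0.05, with a median log2 fold change of 0.01. Of 20 genes of desmosomes, hemidesmosomes and linkers, 15 were tested, of which 4 were higher and 1 lower at an adjusted p under 0.05 (median log2 fold change 0.34). Those higher were ITGB4, a hemidesmosomal integrin (log2 fold change 1.03, limma adjusted p = 0.00242), PKP2 (0.82, 0.00419) and the desmosomal cadherin DSG2 (0.66, 0.00142), and also DSP, desmoplakin, which links keratin to desmosomes (0.42, 0.0483). COL17A1, a hemidesmosomal collagen whose locus is joined with MIR936, was lower (-0.93, 0.0200). DSP lost its call without si-CTRL replicate 2 or 3 or si-SAM68 replicate 2 or 3 (adjusted p between 0.0740 and 0.190). It was also not called with the replicate block (0.0601). COL17A1 lost its call without si-CTRL replicate 3 or si-SAM68 replicate 3 (between 0.0528 and 0.0555). Other genes of this list gained calls. With the replicate block 5 of its genes were called higher, as with a minimum mean of 50, and 7 with DESeq2 on recovered reads. Without a filter, with quantile normalization and without a trend, 3 were called higher.

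Of 14 other intermediate filament genes 11 were tested, with 0 higher and 2 lower (median log2 fold change -0.03), beside 4.47% and 6.23% of all loci. SYNM, synemin, fell by 0.74 on the log2 scale (limma adjusted p = 0.00179), and BFSP1, a lens filament protein, by 0.52 (0.0448; between 0.0607 and 0.153 without each library in turn other than si-CTRL replicate 1, and 0.0735 with the replicate block). VIM, vimentin, did not pass (log2 fold change -0.14, limma adjusted p = 0.333). Among 22 regulators of epithelial keratin genes, 18 were tested, with 0 higher and 4 lower (median -0.18), beside the same 4.47% and 6.23%. In 3 settings 1 was higher, namely without si-CTRL replicate 1, with a minimum mean of 50 and with DESeq2 on recovered reads. Those lower were the transcription factors EHF (log2 fold change -1.03, limma adjusted p = 0.0293), TFAP2C (-0.87, 0.00209), ZEB1 (-0.63, 0.0118) and KLF4 (-0.56, 0.0259). EHF and KLF4 lost their calls without si-CTRL replicate 3 or any 1 si-SAM68 library (adjusted p between 0.0671 and 0.108), and ZEB1 without si-SAM68 replicate 1 (0.0521). Without a trend in limma's eBayes, COL17A1, DSP, BFSP1, KLF4, ZEB1 and KLHL24 were not called, and without a filter on low values DSP, BFSP1, EHF and KLHL24 were not. DSP and BFSP1 also lost their calls with quantile normalization. Of 15 keratin-binding and turnover genes 13 were tested, with 1 higher and 0 lower (median -0.04), a share of higher calls near the 4.47% of all loci. The gene was KLHL24, a ubiquitin ligase adaptor for keratin (log2 fold change 0.51, limma adjusted p = 0.0463; between 0.0745 and 0.163 without si-CTRL replicate 3 or any 1 si-SAM68 library).

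Markers of the line were as follows. VIM, CD44, AXL and ZEB1 were present, with sums between 243938 and 300044 normalized reads per library, whereas CDH1, EPCAM, GRHL2 and ESRP1 had at most 9.20 in any library, ESR1 (the higher of its 2 loci) had at most 15.2, and PGR was listed at 0. ERBB2, in a locus joined with MIR4728, was read at between 2413 and 3447. The 12 luminal markers summed to between 43208 and 46898 in si-CTRL and between 54557 and 59244 in si-SAM68 libraries, led by KRT18. KRT8, KRT18 and KRT19 held between 97.2% and 97.9% of these sums, and without them the groups overlapped, with 986 to 1211 in si-CTRL and 1163 to 1294 in si-SAM68 libraries. Of 7 tested, 4 were higher (4.47% of all loci) and 0 lower, KRT8, KRT18, KRT19 and MUC1 (log2 fold change 0.38, limma adjusted p = 0.0427; between 0.0539 and 0.136 without each library other than si-CTRL replicate 1, and 0.0615 with the replicate block), whose call was also lost without a trend and without a filter. ELF3 (0.50, 0.281), GATA3 (-0.13, 0.669) and CLDN4 (-0.27, 0.362) did not pass.

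Of 8 basal or myoepithelial markers, KRT5 was listed at 0, and the sum was between 879 and 904 in si-CTRL and between 921 and 985 in si-SAM68 libraries, led by OXTR. A sum without OXTR was not planned, and it leaves out the only marker called higher. It was lower in every silenced library, with 336 to 415 in si-CTRL and 211 to 242 in si-SAM68 libraries. Most of it was ACTA2, with means of 275 in si-CTRL and 168 in si-SAM68, so that nothing is read from this sum for the markers as a set. Of 4 tested (median log2 fold change -0.59), 1 was higher and 1 lower, beside 4.47% and 6.23% of all loci tested. OXTR was higher (log2 fold change 0.46, limma adjusted p = 0.0221) and ACTA2 lower (-0.70, 0.0183), and both lost their calls without any 1 si-SAM68 library (adjusted p between 0.0566 and 0.102) and without a trend. CNN1 (-0.89, 0.0926) and KRT17 did not pass, although the groups of CNN1 did not overlap. Of 12 epidermal markers 5 were listed at 0, among them KRT1 and KRT5, and KRT10 led sums between 1036 and 1385 in si-CTRL and between 1035 and 1199.7 in si-SAM68 libraries. Of 3 tested (median -1.21), 0 were higher and 2 lower, beside the same 4.47% and 6.23%. SBSN (log2 fold change -1.87, limma adjusted p = 0.00140) and IVL (-1.21, 0.0465; between 0.0553 and 0.118 without each library in turn, and 0.0782 with the replicate block) were lower, and the call of IVL was also lost without a trend, without a filter and with edgeR. Of 9 hair follicle markers KRT35 was listed at 0, and the sums, led by KRT81, were between 625 and 775 in si-CTRL and between 437 and 501 in si-SAM68 libraries. Of 4 tested, 0 were higher and 1 lower, KRT34, again beside 4.47% and 6.23%. The part of other cells in these values was not tested, and fewer cells of a type and less RNA per cell cannot be told apart.

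Among 12927 loci with a symbol and a mean of at least 50, the 5 most like KRT8 over the 6 libraries (Pearson r of log2 values, a description) were TMEM25, RNF41, DHRS3 (joined with MIR6730), NKAPP1 and PICK1, with r between 0.992 and 0.994. Those most like KRT18 were HSD3B7, ANKMY2, C2orf68, LXN and ADD3, with r between 0.995 and 0.999. KRT18 ranked 152 for KRT8, and KRT8 ranked 443 for KRT18 (r = 0.939 for the pair). The 6 points share the group difference.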

How the data were processed

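RNA of MDA-MB-231 cells was sequenced as 6 libraries, grouped by their labels. Each value that the authors deposited is a signal, namely reads per locus (hg19) divided by the DESeq2 size factor of the library. The submitters' processing notes name FastQC, Picard, SAMtools, STAR 2.4.0 and DESeq2; strand use in counting is not given in the sources used here. Of 74852 loci, 41493 were at 0 in every library. Dividing by the step of each library gave whole reads for 100% of values (tolerance 0.1); an automatic test could not judge si-SAM68 replicate 1, whose step is 1.007.

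The test was limma 3.58.1 (R 4.3.3; lmFit, then trended eBayes) on log2 of the normalized read count plus a pseudocount of 1, a scale that understates the change of low genes. It took in the 18849 loci whose mean reached 10, with Benjamini-Hochberg adjustment. Other settings tried were pseudocounts 0.1 and 5, a minimum mean of 50 or none, TMM and quantile scaling, untrended and robust eBayes, a replicate block, leaving out single libraries, coding length for levels, pseudogene loci added for pairs, and edgeR 4.0.16 and DESeq2 1.42.0 on the recovered reads. edgeR with the block, and the length of KRT19 and JUP together, were chosen after seeing the data. Leaving leading genes out of the marker sums was not planned. Programs were tested on simulated data. Same-numbered libraries deviated together weakly (r = 0.105, 0.231 and 0.125; -0.125 to 0.007 for different numbers). Values were centred within each group, so that these r depend on one another. Whether the numbers mark true pairs was not tested. The main test and the permutation tests did not pair the libraries, and only the settings with a replicate block did.

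Named genes were KHDRBS1, the 10 keratins, every other keratin locus with a mean of at least 10, the 5 loci most like KRT8 and KRT18, and list members with an adjusted p under 0.05, up to the 6 with the largest fold, besides defining markers. The KRTAP loci were chosen after their values were seen. The members and lists were chosen with earlier results of these data known.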

Additional observations from a re-analysis of the deposited data

How the results depend on the processing

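The 10 keratins kept the direction of their log2 fold change under every alternative run, except KRT10 and KRT86, which were not called. KRT10 was 0.0045 with quantile normalization and between -0.21 and 0.10 with single libraries left out, KRT86 between -0.22 and 0.18. The calls depended more on the settings. Without a trend in eBayes, 899 loci and 0 keratins in either direction were called at an adjusted p under 0.05, with log2 fold changes of 0.31 (KRT8, adjusted p = 0.124), 0.35 (KRT18), 0.37 (KRT19), 0.37 (KRT80) and -0.68 (KRT15); the cause was not tested. KRT8 also lost its call with no filter (0.31) and quantile normalization (0.27). With the replicate block 1697 loci, 3 higher and 0 lower keratins were called: KRT8 (0.31) and KRT15 (-0.68) lost their calls, and no other keratin call changed. Of the other genes named, DSP, BFSP1, MUC1, IVL, TMEM25, HSD3B7 and ADD3 lost theirs (adjusted p between 0.0522 and 0.0782). Without a trend, ACTA2, ADD3, BFSP1, COL17A1, DHRS3, DSP, IVL, KLF4, KLHL24, KRTAP1-5, the KRTAP2-3 locus, MUC1, OXTR, TMEM25 and ZEB1 lost theirs, without a filter BFSP1, DSP, EHF, HSD3B7, IVL, KLHL24, KRTAP1-5 and MUC1, with quantile normalization BFSP1, DSP and KRTAP1-5, and with edgeR IVL. edgeR with the block, chosen after seeing the data, called 1722 loci, 3 higher and 0 lower keratins. edgeR and DESeq2 on recovered reads called 2026 and 2789 loci, each with 4 higher and 1 lower keratins. By the study's thresholds 0 keratins were higher; without a filter these took 2240 loci in place of 1445. With single libraries left out, called loci were between 625 and 2839, keratins called higher between 0 and 4 and lower between 0 and 2, and by the study's thresholds lower between 0 and 1. The log2 fold changes then lay between 0.25 and 0.36 (KRT8), -0.85 and -0.54 (KRT15), 0.32 and 0.37 (KRT18), 0.31 and 0.44 (KRT19), 0.34 and 0.43 (KRT80) and -0.53 and -0.31 (KRT81). Pair differences in log2 ratio lay between 0.0034 and 0.078 (KRT18 over KRT8), -0.014 and 0.14 (KRT19 over KRT8), -0.053 and 0.067 (KRT18 over KRT7), and -0.070 and 0.16 (KRT19 over KRT7). Per kb of coding length, si-CTRL levels were 114 (KRT7), 11392 (KRT8), 420 (KRT15), 24.9 (KRT17), 19256 (KRT18), 1217 (KRT19), 931 (KRT80), 282 (KRT81) and 37.0 (KRT86). Per kb of KRT19 and JUP exons, chosen after seeing the data, KRT19 was at 287. With a minimum mean of 50, KRT17 was not tested. Each call rests on 3 libraries per group, and leaving 1 out also leaves fewer samples for the test.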

Other observations

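Keratin-associated proteins form the matrix of hair around hair keratins. After their values were seen, the loci named KRTAP were counted. Of 89 such loci, 70 were at 0 in every library and 5 were tested, of which 0 were higher and 3 lower at an adjusted p under 0.05 (limma), beside 4.47% and 6.23% of all loci tested. Since they were picked for their values, nothing is read from this count, and the groups did not overlap for any of the 5, with si-SAM68 lower (17.3% of all loci tested). The locus joining KRTAP4-8 and KRTAP4-11 had 180.0, 90.1 and 127 normalized reads in the control libraries, against 13.1, 23.0 and 17.9 in the silenced ones (log2 fold change -2.79, limma adjusted p = 0.000843). That joining KRTAP2-3 and KRTAP2-4 had 859, 412 and 759.6 in si-CTRL and 199, 277 and 229 in si-SAM68 libraries (log2 fold change -1.47, limma adjusted p = 0.00664). KRTAP1-5 was also lower (-0.94, 0.0392), whereas KRTAP4-7 (-1.46, 0.0565) and KRTAP4-9 (-1.50, 0.109) did not pass. KRTAP1-5 lost its call without si-CTRL replicate 3 or any 1 si-SAM68 library (adjusted p between 0.0669 and 0.122), and KRTAP4-7 passed with edgeR and without si-CTRL replicate 2. Near-identical copies in this family can share reads.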
